A study of Mus musculus with 2 samples.

Results

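The mouse gene table holds 28 transcripts named for lying on the strand opposite to another gene. They were chosen by symbol alone: each symbol ends in "os", or in "os" and a digit, and the name left without that ending is itself a symbol of the table. Of 32813 symbols 51 carry the ending, and 23 of these were left out because no such gene is listed, among them ordinary names such as Fos and Nos1. The 28 partners belong to 27 named genes, since Dlx6 has both Dlx6os1 and Dlx6os2. In the GENCODE M21 annotation of the genome build GRCm38 (mm10) all 28 partners could be matched and all 28 lie on the opposite strand of the chromosome that holds their named gene. There, 25 partners are noncoding genes, and 3 (Crxos1, Fancd2os and Slc7a6os) are annotated as protein-coding. All of the named genes are protein-coding.

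The RNA came from type 5 bipolar cells of the mouse retina, a class of cone bipolar cell that carries light signals from photoreceptors to the inner retina. The cells were sorted by fluorescence from dissociated retina, and the sample titles name Htr3a, the serotonin receptor gene of the reporter used to mark them. There is a single group of 2 libraries of total RNA, called replicate 1 and replicate 2, which the submitters call biological replicates. The sex and age of the animals and the number of animals behind a library are details the sources used here do not give. No other cell type, treatment or genotype was analysed here, so each value is a level in the sorted cells and not an enrichment over other cells.

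Antisense partners arise where both DNA strands of a locus are transcribed. When the pair starts from neighbouring sites and runs apart, one CpG-rich promoter often serves both directions, and the noncoding product is frequently short-lived because the nuclear RNA exosome degrades it. Many genes of developmental transcription factors, including those that build the eye, have such a partner, and some partners, such as Uchl1os, have been studied for their effect on the gene across from them.

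Levels are in transcripts-per-million units (TPM). A read count is divided by transcript length, and the results are then scaled to the same sum in every library. Levels of different genes can thus be set side by side. TPM does not carry the number of reads, so library depth is unknown and values have no counting interval. The sort was checked first: the 5 markers of type 5 cells summed to 679.64 TPM in replicate 1 and 756.05 TPM in replicate 2, and all 5 were called above 10 TPM. Markers of other retinal cells were also present. The 5 rod markers summed to 320.24 and 632.81 TPM, the 4 Müller glia markers to 174.96 and 218.39 TPM, and the 4 amacrine markers to 37.05 and 43.93 TPM. The 4 ganglion cell markers summed to 3.25 and 9 TPM, with Sncg and Nefm at 0 in both libraries. RNA of the mitochondrial genome took 17.3% and 24.6% of all TPM. For Rps27, which encodes a component of every ribosome, replicate 1 has 0 and replicate 2 has 838 TPM, so a 0 is reported here only as listed.

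Most partners were scarce in these cells, at a median level close to that of all symbols. Of the 28 partners 15 were above 0 in both libraries, 4 in 1 library, and 9 are listed at 0 in both. Of all symbols 39.1% are listed at 0 in both, and of the other noncoding genes 38.8%. Their median was 0.38 TPM in replicate 1 and 0.48 TPM in replicate 2, against 1.68 and 2.11 TPM for the 27 named genes. Summed over all members, the partners held 115.06 and 94.92 TPM, and the named genes 853.54 and 881.43 TPM. On the scale log2(TPM + 1), averaged over the libraries, the median was 0.77 for the partners, 1.53 for the named genes and 0.75 for all symbols of the table.

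Expression above a line was tested one-sided in limma on log2(TPM + 1), and p-values were Benjamini-Hochberg adjusted over all 19968 genes above 0 in either library, with a threshold of 0.05. Of the 19 partners that could be tested 6 were called above 1 TPM, namely Crxos1, Slc7a6os, Ccdc41os1, Fam120aos, Vax2os and Dlx1os, where 55.5% of all tested genes were called. Above 10 TPM 1 partner, Crxos1, was called, where 32.4% of all tested genes were. Of the 22 named genes that could be tested 13 were called above 1 TPM and 7 above 10 TPM. By the plain count, 9 of the 28 partners had at least 1 TPM in both libraries, where 41.1% of all symbols and 31.5% of the other noncoding genes did. The members thus passed these lines at a smaller share than all genes. At the line of 1 TPM the share of all 19 tested partners was close to that of other noncoding genes (741 of 2342 tested). Of the 6 called partners, however, 2 (Crxos1 and Slc7a6os) are protein-coding. Among the noncoding partners alone, 4 of 17 tested were called above 1 TPM and 0 above 10 TPM. By the plain count, 7 of the 25 noncoding partners had at least 1 TPM in both libraries. The variance of a gene came from the trend with abundance, so how far apart its libraries lay did not count in its call. A missed call does not place a partner under 1 TPM.

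**Figure D1:**
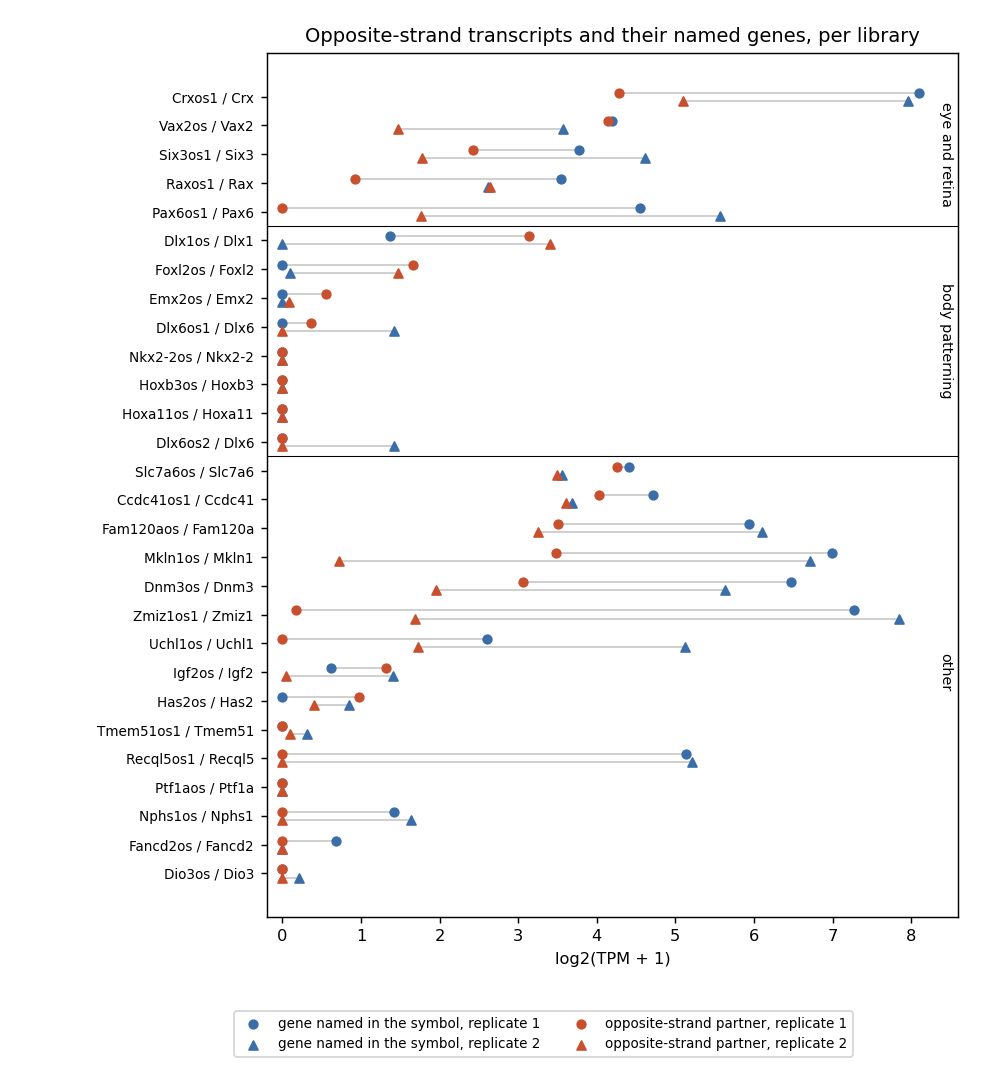
Level of each partner (red) and of the gene it is named for (blue) in log2(TPM + 1), circles for replicate 1 and triangles for replicate 2, with a grey line joining the members of a pair within a library; the panels group the named genes by role. In the eye and retina panel the red symbols lie left of the blue ones in 4 of 5 pairs in both libraries, and in the body patterning panel 4 of 8 partners sit at 0 in both libraries.

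Both members were above 0 in at least 1 library in all 5 pairs whose gene is on the eye and retina list used here. The count depends on that list. Ptf1a is not on it, and Ptf1aos and Ptf1a are listed at 0 in both libraries. All 5 named genes (Crx, Pax6, Rax, Six3 and Vax2) were called above 1 TPM, where 55.5% of all tested genes were. In 4 of these pairs the partner was below its named gene in both libraries. The median level was 2.10 for the partners and 4.19 for the named genes in log2(TPM + 1).

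Crx encodes a homeodomain transcription factor of photoreceptors that bipolar cells also make, and this pair had the highest level of all 28. Crxos1 stood at 18.53 TPM in replicate 1 and 33.19 TPM in replicate 2. Crx stood at 272.77 and 248.16 TPM. The partner was lower in both libraries, by log2 differences of -3.81 and -2.87 (mean -3.34 ± 0.67, SD, n = 2), and made up 6.36% and 11.8% of the pair's TPM. The values of partner and gene do not overlap. The summed rod markers were higher in replicate 2, like the partner, with Gnat1 at 14.34 and 112.74 TPM and Sag level at 247.51 and 248.42 TPM. The 4 cone markers, of another cell type that makes Crx, went the other way, with a sum of 100.67 and 29.1 TPM and 1 of 4 called above 1 TPM. The part of rods and cones in the levels of this pair was not tested. All 5 rod markers were called above 1 TPM. In these bulk libraries fewer cells of a type and less RNA per cell cannot be told apart.

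Crxos1 covers chr7:15882617-15904020 on the plus strand and Crx covers chr7:15865947-15879968 on the minus strand (GRCm38). The genes share no base, and their starts face away from each other at a distance of 2649 bases, so in this annotation no read falls on exons of both. The RefSeq promoter windows, which run from 250 bases before to 50 bases after a start in GRCm38.p6, are shown because Crx and its relative Otx2 bind the motif TAATCC. The motif was searched on both strands and matches are in capitals (GGATTA is its reverse complement). Both windows are written 5′ to 3′ in the direction of their own gene, at chr7:15879906-15880205 on the minus strand for Crx and at chr7:15882367-15882666 on the plus strand for Crxos1.
Crx: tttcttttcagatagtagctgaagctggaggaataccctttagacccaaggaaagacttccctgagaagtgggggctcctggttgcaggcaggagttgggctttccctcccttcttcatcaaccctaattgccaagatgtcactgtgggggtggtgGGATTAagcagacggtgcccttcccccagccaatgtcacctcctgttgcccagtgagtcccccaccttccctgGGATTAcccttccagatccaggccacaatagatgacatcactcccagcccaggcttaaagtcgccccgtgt
Crxos1: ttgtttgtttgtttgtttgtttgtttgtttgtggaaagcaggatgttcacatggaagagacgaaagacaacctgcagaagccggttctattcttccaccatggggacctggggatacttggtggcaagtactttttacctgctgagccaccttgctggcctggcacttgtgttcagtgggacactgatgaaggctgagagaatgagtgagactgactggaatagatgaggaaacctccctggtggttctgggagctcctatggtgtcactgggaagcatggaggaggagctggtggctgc
The window of Crx holds 2 matches and the printed window of Crxos1 holds 0, while 7.06% of all 32851 RefSeq windows of the same length hold at least 1. RefSeq also gives starts of Crxos1 at chr7:15896124 and chr7:15901646, farther from Crx, and their windows hold 0 matches too. A match is a description of the letters and not a measured binding site.

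Vax2 directs the ventral part of the developing eye. Vax2os stood at 16.64 TPM in replicate 1 and 1.78 TPM in replicate 2, and Vax2 at 17.24 and 10.84 TPM. The pair was level in replicate 1, with a log2 difference of -0.05, and the partner was lower in replicate 2, with -2.09. Vax2os was called above 1 TPM although its libraries lie this far apart. The genes overlap head to head, with 5′ ends 937 bases apart, and share no exon base.

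Six3 acts early in forebrain and eye formation. Six3os1 stood at 4.39 and 2.43 TPM and Six3 at 12.72 and 23.42 TPM, so the partner was lower by log2 differences of -1.35 and -2.83. The partner was lower and the gene higher in replicate 2 than in replicate 1. Their exons share 106 bases, 0.89% of the partner's exon length.

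Pax6, a paired-box regulator of the whole eye that amacrine cells keep in the adult, stood at 22.34 TPM in replicate 1 and 46.47 TPM in replicate 2. Pax6os1 is listed at 0 in replicate 1 and stood at 2.39 TPM in replicate 2, and was not called above 1 TPM. Both members were higher in the same library as the amacrine markers Gad1 (0.06 and 10.43 TPM), Gad2 (0.11 and 9.94 TPM) and Tfap2b (0.33 and 20.44 TPM), although Slc6a9 went the other way (36.55 and 3.12 TPM). Of these 4 markers 1 was called above 1 TPM, and their part in the Pax6 pair was not tested.

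Rax, the retina and anterior neural fold homeobox gene, gave the eye pair whose order differed between libraries. Raxos1 stood at 0.89 and 5.26 TPM and Rax at 10.7 and 5.14 TPM. The log2 difference was -2.63 in replicate 1 and 0.03 in replicate 2. Exons of the pair share 1604 bases, 63.0% of the partner's exon length. The sources used here do not say whether strand was used in counting, and without it reads of that stretch cannot be told apart between the 2 genes, here and in every pair below whose exons share bases.

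The named genes of the body patterning pairs were low or listed at 0. None of the 7 named genes behind these 8 pairs was called above 1 TPM. Of the 8 partners 1, Dlx1os, was called above 1 TPM, and 4 are listed at 0 in both libraries and could not be tested. The partner was above its gene in both libraries in 3 pairs, below it in both in 0, and level at 0 in both in 3. The exons of all 3 pairs with the higher partner share bases, and 1 of them is left when both members must have a mean of at least 0.1 TPM.

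Dlx1 is a homeobox gene of inhibitory interneurons. Dlx1os stood at 7.82 and 9.59 TPM, while Dlx1 stood at 1.57 TPM in replicate 1 and is listed at 0 in replicate 2. The partner was higher by log2 differences of 1.78 and 3.40, the largest excess of a partner among the 28 pairs. Dlx1os covers chr2:71516454-71537891 and holds the whole of Dlx1, at chr2:71528113-71533981, within its span. Their exons share 335 bases, 20.6% of the partner's exon length, so most of its exon length lies outside Dlx1 exons.

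Foxl2, a forkhead gene of ovary and eyelid, is listed at 0 in replicate 1, and replicate 2 has 0.07 TPM. Foxl2os stood at 2.15 and 1.77 TPM, higher by log2 differences of 1.66 and 1.37. It was not called above 1 TPM. Its first exon meets that of Foxl2 at chr9:98955288-98955299, where 12 bases are shared, and the 5′ ends lie 11 bases apart. The third such pair, Emx2os, was near 0 (0.47 and 0.06 TPM), with the cortical patterning gene Emx2 listed at 0 in both libraries.

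The remaining patterning partners carried little or no signal. Dlx6os1 stood at 0.29 TPM and is listed at 0 in replicate 2, and Dlx6os2 is listed at 0 in both. Dlx6 itself is listed at 0 in replicate 1 and stood at 1.68 TPM in replicate 2. Nkx2-2os, Hoxa11os and Hoxb3os are listed at 0 in both libraries, as are Nkx2-2, Hoxa11 and Hoxb3, regulators of spinal cord, limb and hindbrain identity.

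The 15 other pairs hold genes of mixed function, and 9 of them had the partner below its gene in both libraries, with 0 above it in both. Of these partners 3 were called above 1 TPM, and 5 are listed at 0 in both libraries and could not be tested. Of the named genes 8 were called above 1 TPM and 5 above 10 TPM, where 55.5% and 32.4% of all tested genes were. Ptf1a, listed at 0 in both libraries, could not be tested.

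Of the partners with at least 1 TPM in both libraries, Slc7a6os and Ccdc41os1 were the closest to the level of their gene. Slc7a6os stood at 18.13 and 10.21 TPM and the amino acid transporter gene Slc7a6 at 20.32 and 10.75 TPM, with log2 differences of -0.16 and -0.07. These genes are both coding, end towards each other and are separated by 2010 bases on chromosome 8. Ccdc41os1 stood at 15.31 and 11.22 TPM. Ccdc41, now called Cep83, a gene of the centriole appendages that anchor the primary cilium, stood at 25.27 and 11.87 TPM, with log2 differences of -0.69 and -0.07. In both pairs partner and gene were lower in replicate 2, and the partner took 48.6% of the TPM of the Ccdc41 pair there.

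Fam120a and Mkln1 also start close to their partner but were far above it. Fam120aos stood at 10.31 and 8.53 TPM against 60.47 and 67.46 TPM for Fam120a, which encodes an RNA-binding scaffold protein, and the log2 differences were -2.44 and -2.84 (mean -2.64 ± 0.28, SD, n = 2). Mkln1os stood at 10.18 TPM in replicate 1 and 0.64 TPM in replicate 2, against 126.57 and 103.67 TPM for Mkln1, which encodes muskelin, a subunit of a ubiquitin ligase. Its log2 differences were -3.51 and -6.00. The values of Mkln1os lie far apart while those of Mkln1 lie close together.

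The DNA between the paired start sites of these 3 loci is shown because it lies upstream of both RefSeq starts. The stretches lie between the RefSeq starts in GRCm38.p6, and each is written 5′ to 3′ along the strand of the named gene: chr10:94688614-94688789 on the plus strand for Ccdc41, chr13:48968061-48968111 on the minus strand for Fam120a and chr6:31398774-31398827 on the plus strand for Mkln1. Capitals mark the GC box GGGCGG, found on either strand, so CCGCCC is its reverse complement, and neighbouring matches can overlap.
Ccdc41: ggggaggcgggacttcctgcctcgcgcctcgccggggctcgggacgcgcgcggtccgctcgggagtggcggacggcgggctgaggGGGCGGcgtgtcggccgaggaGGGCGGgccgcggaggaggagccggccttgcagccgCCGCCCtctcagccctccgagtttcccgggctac
Fam120a: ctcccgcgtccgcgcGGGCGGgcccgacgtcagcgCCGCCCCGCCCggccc
Mkln1: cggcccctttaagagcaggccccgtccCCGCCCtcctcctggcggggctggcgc
The 176 bases between Ccdc41 and its partner hold 27 CpG sites and 3 GC boxes, with 79.5% G and C. The 51 bases at Fam120a hold 12 CpG sites and 3 GC boxes, of which 2 overlap, with 90.2% G and C. The 54 bases at Mkln1 hold 5 CpG sites and 1 GC box, with 77.8% G and C. A median RefSeq promoter window of 300 bases has 7 CpG sites and 52.7% G and C, and 35.7% of all windows hold a GC box. The TATA box (searched as TATAAA) occurs in none of the 3 stretches on either strand, and 13.6% of all windows hold it. The CCAAT box is likewise absent from the 3 stretches and is held by 37.4% of all windows. The windows are longer than the stretches, so their CpG counts and motif shares cannot be set against those of the stretches. At the same length of 300 bases, the windows of Ccdc41, Fam120a and Mkln1 hold 46, 54 and 19 CpG sites. None of these windows holds a TATA box or a CCAAT box. In GENCODE the starts differ, so the stretches of Ccdc41 and Mkln1 do not lie wholly between the starts there. Ccdc41 starts at chr10:94688654, within its printed stretch. Mkln1 starts at chr6:31398735, before its printed stretch, and the first exons of Mkln1 and Mkln1os share 39 bases. The stretch of Fam120a lies between the starts in GENCODE too.

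Dnm3os lies inside an intron of Dnm3, the gene of a dynamin that pinches vesicles from membranes, at chr1:162217623-162225550 on the plus strand. Dnm3os stood at 7.37 and 2.89 TPM and Dnm3 at 87.95 and 48.34 TPM. The partner was lower by log2 differences of -3.41 and -3.66, and it was not called above 1 TPM. Both members were lower in replicate 2. Dnm3os is known as the precursor of miR-199a and miR-214, whose hairpins lie in its exon on the same strand. Their mature sequences are shown from RefSeq with the seed, bases 2 to 8, in capitals.
miR-199a-5p: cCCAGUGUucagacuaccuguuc
miR-199a-3p: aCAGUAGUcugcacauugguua
miR-214-5p: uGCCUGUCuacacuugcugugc
miR-214-3p: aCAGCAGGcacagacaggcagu
The seeds of all 4 differ. The row of the Mir214 hairpin stood at 45.33 TPM in replicate 1 and 2.47 TPM in replicate 2, and that of Mir199a-2 is listed at 0 in both. Each hairpin is 110 bases long and lies within the exon of Dnm3os, and the sources used here do not say how reads were divided between hairpin and host, so the level of Dnm3os may leave out reads counted for Mir214.

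Zmiz1, a coactivator gene of the PIAS family, had the highest named level after Crx, at 153.59 and 228.75 TPM. Zmiz1os1 stood at 0.13 and 2.23 TPM, and its log2 differences of -7.10 and -6.15 were the widest gap of all 28 pairs. Recql5, a DNA helicase gene, stood at 34.14 and 36.01 TPM, while Recql5os1, which lies within its span without sharing an exon base, is listed at 0 in both libraries. All 7 named genes called above 10 TPM were above their partner in both libraries, an order that choosing genes for a high level favours. Of the 7 pairs whose named gene was called above 10 TPM 2 partners were called above 1 TPM and 1 is listed at 0 in both libraries.

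Uchl1, a ubiquitin hydrolase gene of neurons, stood at 5.08 TPM in replicate 1 and 33.85 TPM in replicate 2. Uchl1os is listed at 0 in replicate 1 and stood at 2.31 TPM in replicate 2, so both were higher in the same library. The pair overlaps head to head and its exons share 295 bases. The summed ganglion cell markers were higher in that library too, at 3.25 and 9 TPM, with Rbpms giving most of the sum (3.25 and 8.91 TPM), and their part in this pair was not tested.

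The last partners of this set were low beside low named genes. Igf2os stood at 1.49 and 0.03 TPM beside the growth factor gene Igf2 at 0.53 and 1.64 TPM, and the order of the pair was turned between libraries. Has2os stood at 0.96 and 0.32 TPM beside the hyaluronan synthase gene Has2, listed at 0 and at 0.8 TPM. Nphs1, the gene of the kidney slit protein nephrin, stood at 1.68 and 2.11 TPM with Nphs1os listed at 0 in both, although 44.6% of the partner's exon length is shared with Nphs1 exons. Tmem51os1 (0 and 0.07 TPM), Dio3os, Fancd2os and Ptf1aos (0 in both) complete the set. Their genes Tmem51, Dio3, Fancd2 and Ptf1a reached at most 0.24, 0.16, 0.6 and 0 TPM.

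Over all 28 pairs the partner was below its named gene in both libraries in 13, above it in both in 3 (Dlx1os, Foxl2os and Emx2os), and level in both in 4, where partner and gene are all listed at 0. In the other 8 the order differed or the pair was level in 1 library. The same reading was made on 1855 pairs of other noncoding genes with a protein-coding gene over them on the opposite strand, a comparison added after the members' values were seen. There the noncoding gene was below in both libraries in 64.8% of pairs and above in both in 11.5%. Among pairs whose noncoding member was above 0 in either library, the partner was below in both in 11 of 19 member pairs and the noncoding gene in 759 of 1200 other pairs. All of the other pairs overlap, while 5 of the member pairs lie apart. The median log2 difference was -0.45 for the members (-0.10 in replicate 1 and -0.90 in replicate 2) and -1.71 for the other pairs. Over the 19 and 1200 pairs above 0 it was -1.07 and -1.90. A pair listed at 0 on both sides has a difference of 0, and such pairs pull a median towards 0. Zeros occur in both sets: the partner is listed at 0 in both libraries in 9 of the 28 member pairs, and the noncoding gene in 35.3% of the other pairs. The cause of the gap between the medians was not tested.

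**Figure D2:**
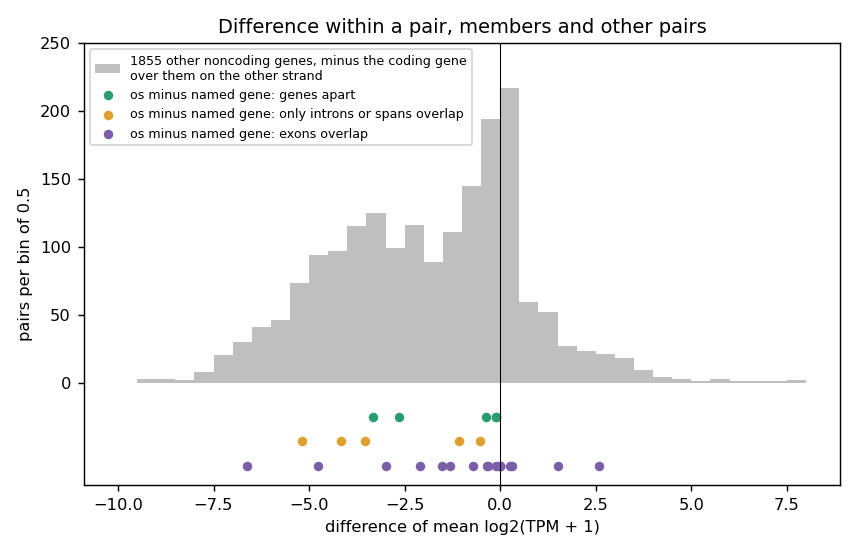
Difference within a pair in mean log2(TPM + 1), with the gene of the other strand subtracted from the noncoding or os member: grey bars count the 1855 other pairs in steps of 0.5, and dots below the axis line are the 28 member pairs by overlap. The dots lie within the spread of the bars, from Zmiz1os1 at the low end to Dlx1os at the high end.

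Partners of higher level tended to sit across from genes of higher level. Across the 28 pairs the mean log2 levels had a Pearson r of 0.62 and a Spearman rho of 0.65, given as a description, since pairs share both libraries and the pairs at 0 on both sides add to it. Of the 10 pairs whose gene was under 1 TPM in both libraries 6 had a partner listed at 0 in both and 1, Foxl2os, had a partner of at least 1 TPM in both.

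**Figure D3:**
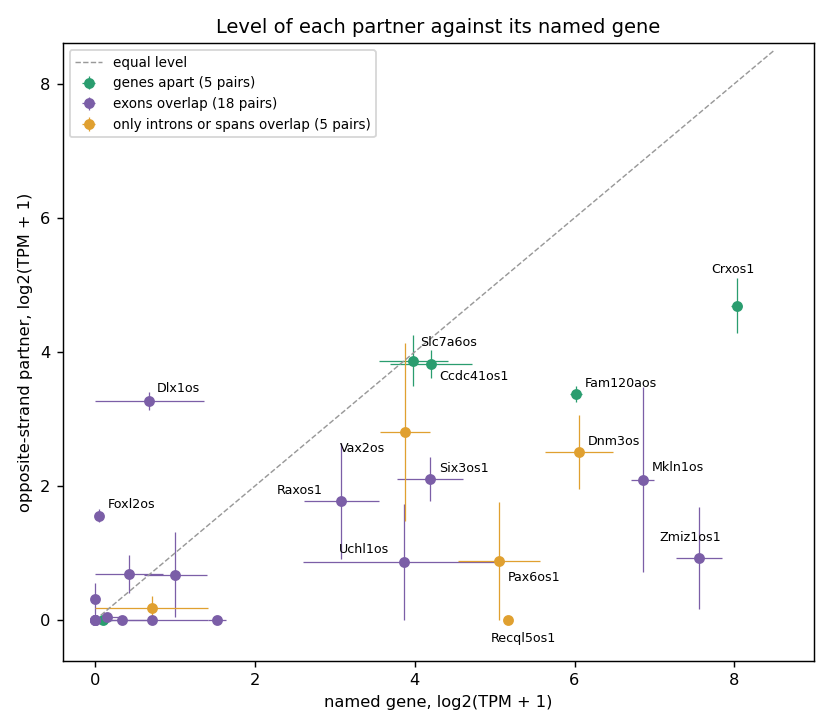
Mean log2(TPM + 1) of each partner (vertical axis) against its named gene (horizontal axis), with bars from the lower to the higher library and colours for the overlap of the pair; the dashed line marks equal levels. Crxos1 and Fam120aos lie far below the line, Slc7a6os and Ccdc41os1 lie on or near it, and Dlx1os and Foxl2os lie above it.

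The partners called above 1 TPM came mostly from pairs whose genes do not touch. Of the 5 pairs whose genes lie apart 4 partners were called above 1 TPM (Crxos1, Slc7a6os, Ccdc41os1 and Fam120aos), with Dio3os as the exception. Of all tested genes 55.5% were called at this line. Of the 18 pairs whose exons share bases 1 partner was called (Dlx1os), and of the 5 that overlap only in introns or spans 1 was (Vax2os). The median partner level in log2(TPM + 1) was 3.82, 0.50 and 0.88 in these classes, and that of the named gene 4.20, 0.55 and 5.06. The classes also differ in role, since the pairs whose exons share bases include 7 of the 8 patterning pairs. They differ in coding status too. Of the 3 protein-coding partners, Crxos1 and Slc7a6os belong to the pairs that lie apart and Fancd2os to those whose exons share bases. No test was made between classes of so few pairs. All 7 partners whose 5′ end lies within 500 bases of that of their gene were above 0 in at least 1 library, while 9 of the 21 with more distant 5′ ends are listed at 0 in both. Of all symbols 39.1% are listed at 0 in both, and of the other noncoding genes 38.8%.

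The libraries disagreed on single partners about as much as on other genes of that level. From replicate 1 to replicate 2, 12 of the 19 partners above 0 in either library were lower and 7 were higher, with a median log2 difference of -0.37, where all tested genes had -0.20. Of 10 partners with a mean of 2 to 30 TPM 4 differed by more than 1 log2 unit and 2, Mkln1os (-2.77) and Vax2os (-2.67), by more than 2. Of all 9088 genes in that range 43.5% and 19.2% did. Partner and gene moved in the same direction between libraries in 9 of the 19 pairs.

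**Figure D4:**
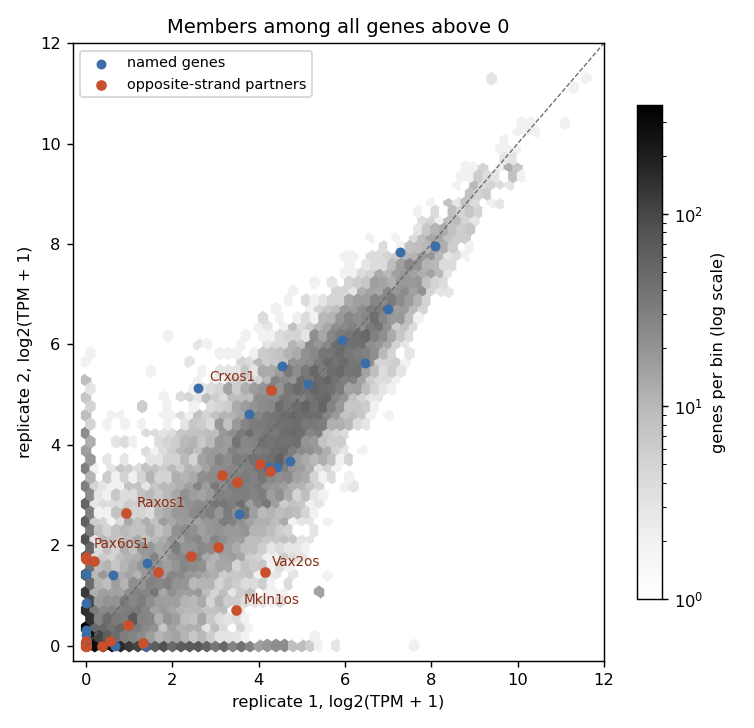
Replicate 2 against replicate 1 in log2(TPM + 1) for all genes above 0 in either library (grey hexagons, darker for more genes on a log scale), with partners in red and named genes in blue; the dashed line marks equal levels. Mkln1os and Vax2os lie well below the line, Raxos1 and Pax6os1 above it, and all lie within the cloud of other genes.

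RNA for the machinery that degrades short-lived noncoding transcripts in the nucleus was present in these libraries. Its protein and activity were not measured. Of 20 genes of the RNA exosome and its nuclear adaptors 19 are listed. All 19 were called above 1 TPM and 12 above 10 TPM, where 55.5% and 32.4% of all tested genes were. Their median was 45.5 TPM in replicate 1 and 29.55 TPM in replicate 2. Zcchc7, a subunit of the nucleolar adaptor complex, stood at 177.91 and 136.99 TPM, and Zfc3h1, a subunit of a nuclear adaptor complex, at 158.19 and 187.65 TPM. The core subunit gene Exosc3 stood at 100.27 and 99.1 TPM, and the helicase gene Skiv2l2 at 45.5 and 51.25 TPM. These levels were well above those of nearly all partners, and a relation between them and the partners was not tested.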

How the data were processed

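RNA was measured in 2 libraries of 1 group. The authors deposited TPM values per gene symbol. Per the submitters' processing notes, RSEM 1.2.28, TopHat2 2.0.10 and mm10 were used, without the role of each, and the sources used here do not give the annotation release, filters or the use of strand. The column of replicate 1 misspells its gene and was assigned through its replicate number. Kit amplification of total RNA and the mitochondrial share set the scale of every other TPM, and TPM keeps no depth, so no count test was possible. Columns sum to 999999.75 and 999999.66.

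The deposited values were used on the log2(TPM + 1) scale, with a pseudocount of 1. Calls used limma 3.58.1 in R 4.3.3 (intercept only, variance trend, one-sided against 1 or 10 TPM, Benjamini-Hochberg over 19968 genes, threshold 0.05). limma estimated an infinite prior, so p-values of single genes are not printed. The fit was tested on simulated data. No sign test was made, since with 2 libraries its smallest exact two-sided p is 0.5. The p-values rest on the spread between these 2 samples pooled over genes of like level, and not on the spread of the gene tested. Other steps used Python 3.11.15, matplotlib 3.10.9, scipy 1.17.1, pandas 2.3.3 and numpy 2.4.6. Positions come from GENCODE M21 and sequences from RefSeq GRCm38.p6. Promoter windows were found for 21 partners and 21 named genes. Symbols Ccdc41os1, Ccdc41, Crxos1 and Dlx1os were matched through older names (Cep83os, Cep83, Crxos and Dlx1as).

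Members and lists were chosen with earlier results of these data known. The naming rule took the 10 partners of highest mean, the 5 largest and 5 smallest differences among partners of at least 1 TPM in both libraries, partners above their gene, eye and retina pairs, the 5 largest library differences per direction with a mean of at least 5 TPM, and the 3 highest genes with a partner at 0. All other members are given to complete the set. Alternatives were other pseudocounts, a filter on low values, 2 scalings, other variance models, other choices of pairs and single libraries.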

Additional observations from a re-analysis of the deposited data

How the results depend on the processing

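Order within a library cannot change with scaling. Over 10 summary results, 63 values under alternatives stayed close to the reported one and 27 moved. With a pseudocount of 10 the partners called above 1 TPM fell from 6 to 3 and those above 10 TPM from 1 to 0, and limma without the trend also called 0 above 10 TPM. In single libraries, without a test, 11 to 13 partners were at or over 1 TPM and 3 to 6 at or over 10 TPM. Of the 10 pairs whose exons share no base, 8 named genes were called above 1 TPM, 8 partners were below and 0 above their gene in both libraries, the median levels were 2.66 (partners) and 4.63 (named genes) and the median difference was -1.86. The median partner level of 0.77 became -1.01 with a pseudocount of 0.1, 3.45 with 10, 1.94 with a mean of at least 0.1 TPM and 0.91 without mitochondrial RNA, and was 0.46 to 0.56 in single libraries. The median named gene level of 1.53 became 0.99, 3.57, 3.93 and 1.76 under the same alternatives. The median difference of -0.45 became -1.25 with a pseudocount of 0.1 and -1.70 with a mean of at least 0.1 TPM. Partners above their gene in both libraries, 3 in all, numbered 1 with that filter and 4 to 6 in single libraries. Leaving out mitochondrial RNA raised the median of all genes from 3.44 to 3.69 in replicate 1 and from 3.18 to 3.55 in replicate 2. Of 124 differences of the 15 pairs taken by the naming rule, 107 stayed within the spread between libraries, 17 moved, and 2 lost their sign in a single library: Raxos1 at 0.03 without replicate 1 and Dlx6os2 at 0 without replicate 2. The causes were not tested beyond the smaller sets. The difference between libraries has no value with 1 library. No paired analysis was possible because there is a single group. Unknown depth sets no floor for the partners listed at 0.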

Other observations

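Other endings also mark transcripts of the opposite or overlapping strand. Of 4 symbols that end in "as" with the remaining stem in the table, Hras and Vipas39 only resemble such a name. Nkx2-2as is listed at 0 in both libraries, like Nkx2-2os and Nkx2-2. Znrd1as stood at 40.61 TPM in replicate 1 and 21.92 TPM in replicate 2, called above 1 TPM, beside Znrd1, an RNA polymerase I subunit gene, at 71.93 and 42.37 TPM. It was thus at a higher level than Crxos1 in replicate 1 and below it in replicate 2. Of 2 symbols that end in "ot", Leprot is a coding gene that shares its name with Lepr. Sox2ot, a noncoding gene that holds Sox2 within its span, stood at 6.6 and 7.72 TPM and was called above 1 TPM, while Sox2, a progenitor and glial gene, is listed at 0 in replicate 1 and stood at 0.74 TPM in replicate 2. The Sox2ot pair thus had the order of the Dlx1os pair, with the noncoding gene above the coding gene in both libraries.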
